A study of Mus musculus with 8 samples.

Results

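The set described here is 10 of the 24421 gene symbols counted in mouse macrophages cultured from bone marrow (BMDM). They encode mitochondrial receptors for autophagy (Bnip3, Bnip3l, Fundc1), the kinase that marks damaged mitochondria (Pink1), receptors that bind ubiquitin on cargo (Sqstm1, Optn) and proteins of the ATG8 family (Gabarap, Gabarapl1, Map1lc3a, Map1lc3b). They were chosen by name, with earlier results of these data known. The CKO group holds 4 libraries (replicates 2, 6, 7 and 8) of cells from OPA1f/f mice with the Lyz2-Cre driver, and the FLOX group 4 libraries (replicates 3, 4, 6 and 7) of cells from OPA1f/f mice without it. All 8 cultures had received interleukin 4 (IL-4), the cytokine of alternative macrophage activation, for 24 h, and no library without IL-4 entered the comparison. Lyz2-Cre expresses Cre recombinase in myeloid cells from an insertion in the Lyz2 locus, so the CKO cells differ from the FLOX cells by the driver as well as by the targeting of Opa1, and these cannot be told apart. The floxed gene encodes OPA1, which fuses inner mitochondrial membranes and shapes their cristae. The labels do not give age or sex, nor whether libraries of a group came from separate mice, and p-values thus measure only the spread between these libraries.

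Mitophagy is the removal of mitochondria by autophagy. One route starts at the outer membrane, where BNIP3, BNIP3L (NIX) and FUNDC1 carry a short motif that binds ATG8 proteins directly. The other starts when PINK1 builds up on mitochondria that have lost import, phosphorylates ubiquitin and activates the ligase Parkin, after which adaptors such as optineurin and p62 (SQSTM1) link the ubiquitin chains to ATG8 proteins. ATG8 proteins are small ubiquitin-like proteins that are joined to lipid on the growing autophagosome and fall into the LC3 and GABARAP subfamilies. In macrophages the same machinery also clears bacteria and protein aggregates. The values below are RNA levels, and neither the proteins nor mitophagy itself was measured.

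The libraries held 11764855 to 18939948 gene-assigned read pairs. The targeted gene stood at 94.6, 98.5, 104.5 and 102.5 CPM in CKO replicates 2, 6, 7 and 8 and at 103.6, 114, 108.4 and 130.3 CPM in FLOX replicates 3, 4, 6 and 7. CPM are read pair counts on the usual per-megaread scale, divided by the assigned total of the library after TMM scaling (trimmed mean of M values). The groups overlapped, and Opa1 (log2 fold change -0.19, SE 0.07, edgeR adjusted p = 0.0544) did not pass the test. Opa1 was called lower in 4 of 20 alternatives. Among them were upper-quartile scaling (edgeR adjusted p = 0.0446) and the fits without FLOX replicate 3 (-0.23, edgeR adjusted p = 0.0182) or 6 (-0.21, edgeR adjusted p = 0.0496). The remaining call came with both of these left out together (-0.29, edgeR adjusted p = 0.00139), a choice made after the data were seen. Without FLOX replicate 7 the log2 fold change was -0.12. The gene totals do not resolve the floxed exons. Lyz2 ranged from 1808 to 2385 CPM in CKO and from 6901 to 8289 CPM in FLOX, and separated the groups (log2 fold change -1.87, edgeR adjusted p = 1.05e-07). Macrophage markers were present in all libraries. Among them 4 fell (Lyz2, Csf1r by 0.42, Cd68 by 0.48 and Mertk by 0.78 on the log2 scale), Fcgr1 rose (1.04), and Adgre1 (0.0043) and Itgam (0.08) were not called. Of 6 IL-4 activation markers Arg1 (1.36) and Mgl2 (0.41) rose, Chil3 (-1.90), Ccl24 (-1.16) and Retnla (-1.10) fell and Mrc1 (0.20) was not called, with sums of 3686 to 4111 CPM in CKO and 3521 to 3652 CPM in FLOX. The extraction protocol speaks of islets, but all 6 islet markers had 0 counts in every library. The summed level of 7 neutrophil markers was 4.56 to 10.1 CPM in CKO and 1.91 to 3.22 CPM in FLOX, with Elane at 0 in all. Dendritic cell markers summed to 2.01 to 2.96 CPM in CKO and 1.91 to 2.32 CPM in FLOX, and stromal and endothelial markers to 12.5 to 15.03 and 8.20 to 9.68 CPM (mostly Pecam1, which macrophages also express). The part of these markers and cells in the results was not tested. In CKO 9.88% to 11.1% of assigned pairs came from the 20 top genes and in FLOX 12.6% to 13.7%, and the part of this in the results was not tested either.

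All 10 genes were measured well above the filter on low counts in every library, with 101 to 11774 read pairs each. Most of them had lower RNA levels in CKO: 8 of 10 fell, none rose, and Bnip3 and Sqstm1 did not pass the test. Among all 11519 tested genes, 45.4% were called at an edgeR adjusted p under 0.05, 21.6% lower and 23.8% higher in CKO. The median log2 fold change was -0.58 over the 10 genes and -0.02 over all tested genes. For the same 8 genes no CKO library reached the lowest FLOX library, which held in this direction for 20% of all tested genes. The count of 8 includes Fundc1, whose call ended in most alternatives, and the other 7 were called in all 20 alternatives. In bulk RNA, fewer cells of a kind and less RNA per cell cannot be told apart.

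**Figure D1:**
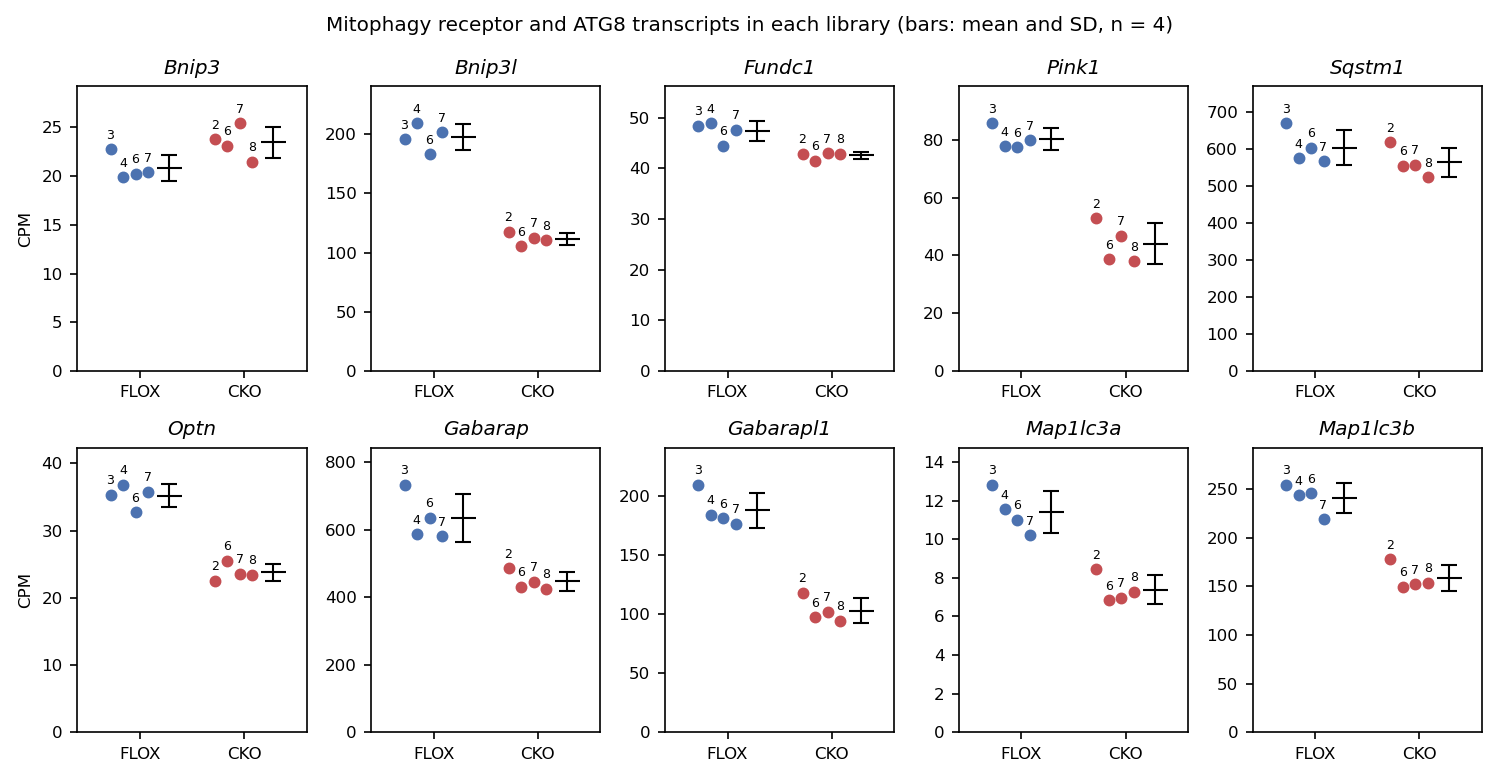
Level of each of the 10 genes in CPM (vertical axis, from 0) in the 4 FLOX and 4 CKO libraries, each point labelled with its replicate number, with the mean and SD beside the points. Bnip3l, Pink1, Optn and the 4 ATG8 genes lie lower in every CKO library, whereas the points of Bnip3 and Sqstm1 overlap between the groups.

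The start regions of Bnip3, Pink1 and Gabarapl1 are shown because Bnip3 was the gene that did not fall among the direct receptors, while Pink1 and Gabarapl1 had the lowest fold changes. They are the 250 bases before the RefSeq start on GRCm38.p6 (the assembly of mm10), written 5′ to 3′ on the strand of the gene. Capitals mark CACGTG, the core of the E-box that MiT/TFE factors such as TFEB bind, and ACGTG or GCGTG on either strand, the core letters of the hypoxia response element. ACGTG lies within CACGTG.
Bnip3 chr7:138909507-138909756 (-): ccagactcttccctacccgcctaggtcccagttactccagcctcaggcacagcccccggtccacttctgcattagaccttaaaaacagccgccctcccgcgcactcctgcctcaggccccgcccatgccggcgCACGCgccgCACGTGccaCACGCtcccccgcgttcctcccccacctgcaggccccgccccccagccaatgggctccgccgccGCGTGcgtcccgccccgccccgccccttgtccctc
Pink1 chr4:138326297-138326546 (-): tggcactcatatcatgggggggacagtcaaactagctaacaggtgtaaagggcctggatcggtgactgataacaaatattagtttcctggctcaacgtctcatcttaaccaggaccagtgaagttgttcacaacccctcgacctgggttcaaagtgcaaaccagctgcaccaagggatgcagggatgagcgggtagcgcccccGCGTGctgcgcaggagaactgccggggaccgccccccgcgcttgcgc
Gabarapl1 chr6:129532942-129533191 (+): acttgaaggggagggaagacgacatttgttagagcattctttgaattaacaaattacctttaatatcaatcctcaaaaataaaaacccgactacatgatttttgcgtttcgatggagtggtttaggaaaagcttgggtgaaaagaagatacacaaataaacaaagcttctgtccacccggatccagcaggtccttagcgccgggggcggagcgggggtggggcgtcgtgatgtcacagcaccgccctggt
RefSeq start regions were matched for 8 of the 10 genes, and Bnip3l and Map1lc3a had no entry. CACGTG occurred in Bnip3 and in no other of the 8, 108 bases before the start, against 6.02% of 32851 start regions. ACGTG on either strand occurred in Bnip3 and Gabarap (16.6% of all), and GCGTG in Bnip3, Map1lc3b, Optn and Pink1 (28.2% of all), with 3, 5, 2 and 1 matches. TGACNNNGC, the core of the antioxidant response element (10.2% of all, both strands), had no match in the 8. The Fundc1 window (17572008 to 17572257) lay wholly within the GENCODE gene, whose start on the minus strand is 17572325. Most of the Gabarap window (69991120 to 69991369) lay after the GENCODE gene start at 69991143. The matches for these genes, or their absence, thus need not describe the region before the gene. These matches of letters in a short window are descriptions and say nothing about binding.

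The paralogs Bnip3l and Bnip3 differed in their response. Bnip3l (ENSMUSG00000022051, chromosome 14, 66985239 to 67008877, mm10, minus strand), the receptor that clears mitochondria from maturing red cells, was at 117.4, 105.4, 112.7 and 110.4 CPM in CKO replicates 2, 6, 7 and 8 and at 195.9, 209.2, 182.9 and 201.6 CPM in FLOX replicates 3, 4, 6 and 7. Every CKO library lay far below every FLOX library, and the spread within each group was small. Bnip3l fell to 56.5% of FLOX (95% interval 50.9% to 62.7%; log2 fold change -0.82 with SE 0.06; edgeR adjusted p = 9.85e-07). Bnip3 (ENSMUSG00000078566, chromosome 7, 138890836 to 138909519, minus strand), known as a target of the hypoxia-inducible factor HIF, was at 23.8, 23.1, 25.4 and 21.5 CPM in CKO and at 22.8, 19.9, 20.2 and 20.4 CPM in FLOX. FLOX replicate 3 lay within the CKO range and the other FLOX libraries below it. CKO stood at 112.7% of FLOX (95% interval 98.5% to 128.8%), a log2 fold change of 0.17 that did not pass (SE 0.08; edgeR, adjusted p = 0.0946). Bnip3 was called higher once CKO replicate 8 was left out, at 0.23 (edgeR adjusted p = 0.0447). Leaving out FLOX replicate 3 had the same result, at 0.22 (edgeR adjusted p = 0.0468) and so did the fit of all libraries without scaling factors, at 0.27 (edgeR adjusted p = 0.0123).

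A ratio taken within each library does not depend on library scaling. There were 4.94, 4.56, 4.43 and 5.14 Bnip3l read pairs for each Bnip3 read pair in CKO replicates 2, 6, 7 and 8, and 8.60, 10.5, 9.04 and 9.87 in FLOX replicates 3, 4, 6 and 7. The ratio was lower in all CKO libraries, with a difference of -0.99 on the log2 scale (exact two-sided permutation test over the 8 libraries, p = 0.0286, the smallest that 70 assignments allow; 0.0381 after Benjamini-Hochberg adjustment over the 4 ratios computed). The coding sequences of these paralogs share 75.05% of aligned bases and no identical stretch longer than 14 bases. Read pairs that align equally well to several places were not assigned, and a transcribed processed pseudogene of Bnip3l is annotated on chromosome 12. Exons of Bnip3 overlap those of the antisense gene Gm45507 by 504 bases. Gm45507 was not among the counted symbols, and the part of its reads in the Bnip3 counts was not tested.

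Fundc1, the third receptor that binds ATG8 proteins directly, changed little. Fundc1 (ENSMUSG00000025040, chromosome X, 17556564 to 17572325, minus strand) was at 42.9, 41.5, 42.9 and 42.9 CPM in CKO and at 48.4, 48.9, 44.5 and 47.6 CPM in FLOX. The groups did not overlap, but FLOX replicate 6 lay close to the CKO libraries. The gene was at 89.9% of FLOX (95% interval 81.4% to 99.3%, log2 fold change -0.15, SE 0.06, edgeR adjusted p = 0.0494), just inside the threshold. Its call ended in 15 of 20 alternatives, with an edgeR adjusted p of 0.11, 0.186, 0.142 and 0.133 without CKO replicate 2, 6, 7 or 8 and of 0.0862, 0.108 and 0.0778 without FLOX replicate 3, 4 or 7.

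**Figure D2:**
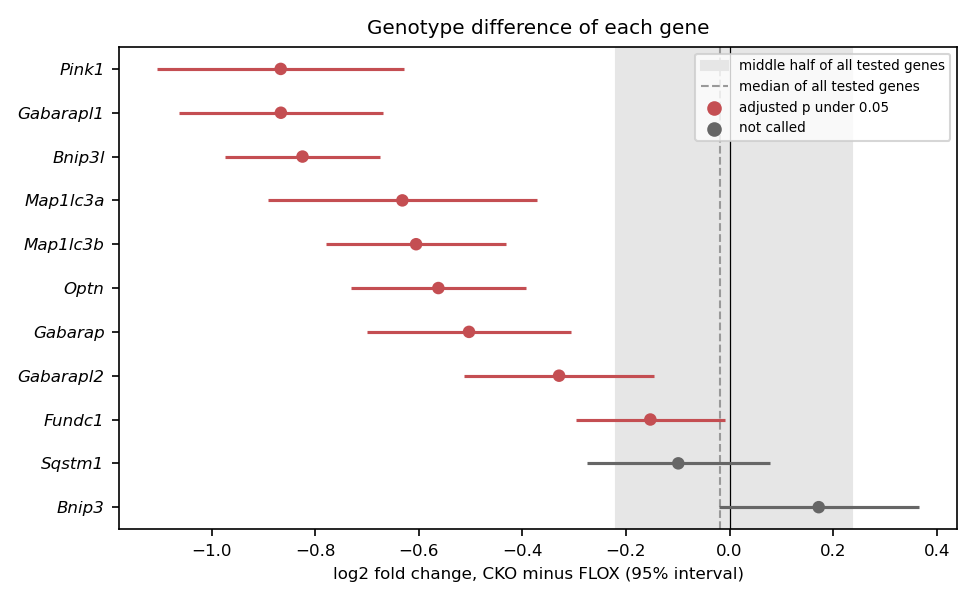
Log2 fold change of CKO against FLOX (horizontal axis) with its 95% interval for the 10 genes and Gabarapl2, against the middle 50% and the median of all tested genes (grey band and dashed line). Pink1, Gabarapl1 and Bnip3l lie lowest at -0.87, -0.87 and -0.82, and Bnip3 highest at 0.17.

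Pink1 had one of the lowest fold changes of the 10 genes. Pink1 (ENSMUSG00000028756, chromosome 4, 138313409 to 138326307, minus strand) was at 52.9, 38.6, 46.9 and 38.1 CPM in CKO and at 85.8, 77.9, 77.5 and 80.0 CPM in FLOX. The CKO libraries spread more widely than the FLOX libraries, yet the highest of them stayed well below the lowest FLOX library. The level fell to 54.8% of FLOX (95% interval 46.5% to 64.7%, log2 fold change -0.87, SE 0.10, edgeR adjusted p = 1.77e-05). Park2, the gene of the ligase Parkin that PINK1 activates, was tested but not called (log2 fold change -0.53 with SE 0.23, edgeR adjusted p = 0.0841). Exons of Pink1 overlap the microRNA genes Mir7019 (69 bases) and Gm27646 (110 bases) on the same strand.

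The ubiquitin-binding receptors did not move alike. Optn (ENSMUSG00000026672, chromosome 2, 5020642 to 5064051, minus strand), which encodes optineurin, was at 22.5, 25.5, 23.6 and 23.4 CPM in CKO and at 35.3, 36.8, 32.8 and 35.7 CPM in FLOX, with a wide gap between the groups. Optn fell to 67.7% of FLOX (95% interval 60.3% to 76.1%, log2 fold change -0.56, SE 0.07, edgeR adjusted p = 3.66e-05). Sqstm1 (ENSMUSG00000015837, chromosome 11, 50199366 to 50210827, minus strand), which encodes p62 and is known as a target of the oxidative stress factor NRF2, was at 617, 555, 557 and 524 CPM in CKO and at 669, 575, 603 and 566 CPM in FLOX. CKO replicate 2 lay above 3 of the FLOX libraries, and the groups overlapped. CKO stood at 93.4% of FLOX for Sqstm1 (95% interval 82.6% to 105.5%), a log2 fold change of -0.10 that did not pass (SE 0.07; edgeR, adjusted p = 0.288) and was 0.0017 without scaling factors. The value moved both ways with the libraries used. It was -0.05 without FLOX replicate 3 and also without CKO replicate 8. In choices made after the data were seen, it was -0.02 with FLOX replicates 3 and 6 left out together and -0.18 (edgeR adjusted p = 0.048) with FLOX replicates 4 and 7 left out together. There were 27.4, 21.8, 23.6 and 22.4 Sqstm1 read pairs per Optn read pair in CKO replicates 2, 6, 7 and 8 and 19.0, 15.6, 18.4 and 15.8 in FLOX replicates 3, 4, 6 and 7. This ratio was higher in all CKO libraries by 0.47 on the log2 scale (exact two-sided permutation test, p = 0.0286; 0.0381 adjusted over the 4 ratios). Exons of Sqstm1 overlap those of Mrnip on the opposite strand by 580 bases, and exons of Optn those of the antisense gene 4930551O13Rik by 73 bases. The strand setting of the counting is not given in the sources used here.

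The 4 ATG8 genes fell together. Gabarapl1 (ENSMUSG00000030161, chromosome 6, 129533160 to 129542346, plus strand), of the GABARAP subfamily, was at 118.0, 97.3, 102.0 and 94.3 CPM in CKO replicates 2, 6, 7 and 8 and at 209.2, 183.7, 180.8 and 176.2 CPM in FLOX replicates 3, 4, 6 and 7. It fell to 54.9% of FLOX (95% interval 47.8% to 62.9%, log2 fold change -0.87, SE 0.08, edgeR adjusted p = 4.46e-06). Replicate 2 was the highest CKO library and replicate 3 the highest FLOX library, and the groups stayed apart. Gabarap (ENSMUSG00000018567, chromosome 11, 69991143 to 69994951, plus strand), which gave the subfamily its name as a partner of GABA receptors, was at 487, 432, 446 and 426 CPM in CKO and at 733, 587, 635 and 580.1 CPM in FLOX. It fell less, to 70.6% of FLOX (95% interval 61.6% to 80.9%, log2 fold change -0.50, SE 0.08, edgeR adjusted p = 0.000284).

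Map1lc3b (ENSMUSG00000031812, chromosome 8, 121590361 to 121598760, plus strand), whose lipid-bound product is the usual marker of autophagosomes, was at 178, 149.8, 152 and 154 CPM in CKO and at 254, 244, 245 and 219 CPM in FLOX. All CKO libraries were lower, and replicate 2 stood above the other CKO libraries. Map1lc3b fell to 65.7% of FLOX (95% interval 58.3% to 74.2%, log2 fold change -0.61, SE 0.07, edgeR adjusted p = 2.55e-05). Map1lc3a (ENSMUSG00000027602, chromosome 2, 155276297 to 155278073, plus strand), its less abundant paralog, was at 8.46, 6.85, 6.96 and 7.27 CPM in CKO and at 12.8, 11.6, 11.01 and 10.2 CPM in FLOX. It fell to 64.5% of FLOX (95% interval 53.9% to 77.3%; log2 fold change -0.63 with SE 0.11; edgeR adjusted p = 0.000409) and had the widest interval of the 10 genes in log2 units and the fewest read pairs. Gabarapl2, the remaining ATG8 gene, which does not belong to the 10, had a mean of 39.5 CPM (SD 2.50) over the 4 CKO libraries against 49.6 CPM (SD 4.13) over the 4 FLOX libraries and also fell (log2 fold change -0.33, SE 0.07, edgeR adjusted p = 0.00331).

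Within the GABARAP subfamily the fall was unequal, and within the LC3 subfamily no inequality was detected. The number of Gabarapl1 read pairs per Gabarap read pair was 0.243, 0.225, 0.229 and 0.222 in CKO replicates 2, 6, 7 and 8 and 0.285, 0.313, 0.285 and 0.304 in FLOX replicates 3, 4, 6 and 7. The ratio was lower in all CKO libraries, with a difference of -0.37 on the log2 scale (exact two-sided permutation test, p = 0.0286; 0.0381 adjusted over the 4 ratios). The number of Map1lc3a read pairs per Map1lc3b read pair was 0.0476, 0.0457, 0.0458 and 0.0473 in CKO and 0.0504, 0.0475, 0.0449 and 0.0466 in FLOX. These ranges overlapped and the difference was -0.02 on the log2 scale (exact two-sided permutation test, p = 0.686, also after adjustment), between -0.05 and 0.01 when single libraries were left out. Coding sequences of Gabarap and Gabarapl1 share 74.9% of aligned bases with no identical stretch over 17 bases, and those of Map1lc3a and Map1lc3b share 76.5% with none over 15 bases. Exons of Gabarapl1 overlap those of the antisense gene 1700101I11Rik by 570 bases, which had at most 0.638 CPM in any library. Exons of Map1lc3b overlap those of Zcchc14 by 58 bases (8.44 to 10.98 CPM in CKO and 9.60 to 13.8 CPM in FLOX).

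**Figure D3:**
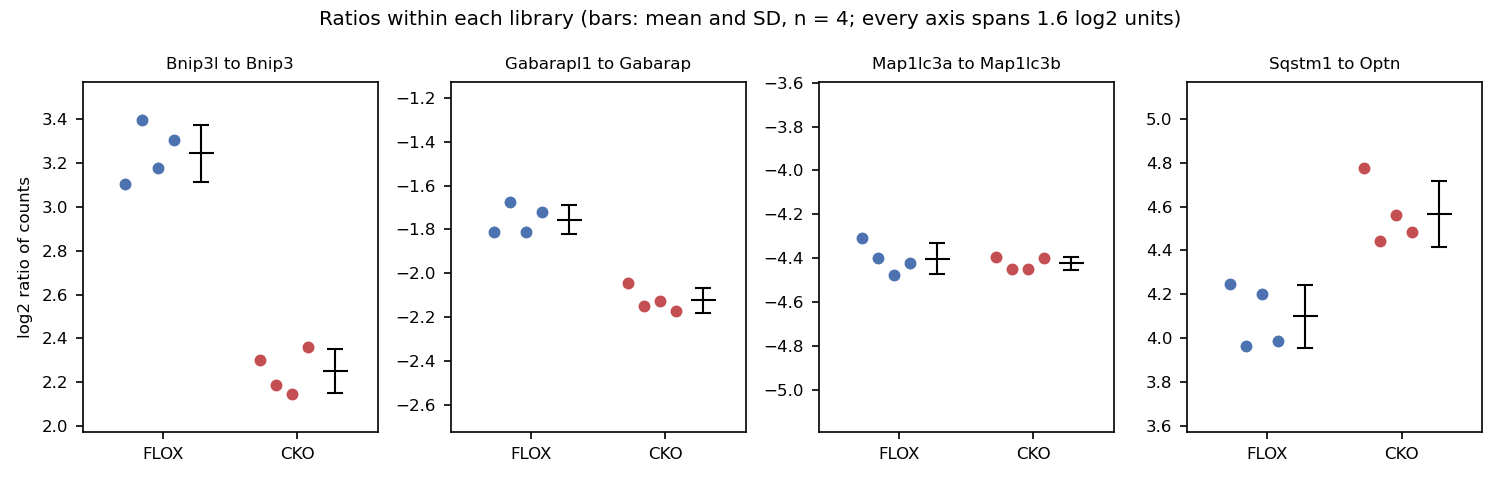
Log2 ratio of read pairs of 2 genes within each library (vertical axes, all spanning the same number of log2 units) in FLOX and CKO, with the mean and SD beside the points. The ratios of Bnip3l to Bnip3, Gabarapl1 to Gabarap and Sqstm1 to Optn part the groups, with differences of -0.99, -0.37 and 0.47, and the ratio of Map1lc3a to Map1lc3b does not.

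Levels were compared between genes as CPM per kilobase of exon of coding transcripts. In FLOX, Gabarap led with 469 ± 52.3 CPM per kilobase, followed by Sqstm1 with 214 ± 16.6, Gabarapl1 with 103 ± 8.13, Bnip3l with 60.2 ± 3.39 and Map1lc3b with 46.4 ± 2.92 (SD, n = 4 each). Neighbours in this upper part of the order did not overlap between libraries. Pink1 (30.04 ± 1.44) and Gabarapl2 (29.5 ± 2.46) overlapped on this gene model, and Fundc1 (20.5 ± 0.867), Optn (13.4 ± 0.659), Bnip3 (11.2 ± 0.709) and Map1lc3a (10.3 ± 0.987) followed. The ranges of Bnip3 and Map1lc3a overlapped, but within every FLOX library Bnip3 was the higher of these on this gene model. In CKO the upper part kept its order, with Gabarap at 331 ± 20.3, Sqstm1 at 199.5 ± 13.9, Gabarapl1 at 56.5 ± 5.81, Bnip3l at 34.0 ± 1.53 and Map1lc3b at 30.5 ± 2.53 CPM per kilobase. The ranges of Bnip3l and Map1lc3b now overlapped, but within every CKO library Bnip3l was still the higher. Pink1 stood above Fundc1 in every FLOX library (29.0 to 32.1 against 19.3 to 21.2) and overlapped with it in CKO (14.2 to 19.8 against 18.01 to 18.6). Bnip3 at 12.6 ± 0.884 was above Optn at 9.09 ± 0.476 CPM per kilobase in CKO. The lower part of the order depended on the gene model. With exons of all transcripts, a choice made after the data were seen, the FLOX means were 32.0 CPM per kilobase for Map1lc3b and 30.04 for Pink1, 21.3 for Gabarapl2 and 20.1 for Fundc1. Optn, Bnip3 and Map1lc3a then stood at 9.37, 9.20 and 9.65 CPM per kilobase.

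The 5 ATG8 genes together came to 493, 432, 444 and 426 CPM per kilobase in CKO replicates 2, 6, 7 and 8 and to 751, 620, 656 and 607 in FLOX replicates 3, 4, 6 and 7. Gabarap made up most of this pool in both groups, 73.9% ± 0.532 in CKO and 71.2% ± 0.97 in FLOX (SD, n = 4 each). The share of Gabarapl1 was 12.2% to 13.2% in CKO and 15.2% to 16.3% in FLOX, without overlap. Map1lc3b held 6.81% ± 0.186 in CKO and 7.08% ± 0.442 in FLOX, and these ranges overlapped. Gabarapl2 held a larger share in CKO (5.25% ± 0.203) than in FLOX (4.50% ± 0.227), and Map1lc3a held 1.48% ± 0.0705 and 1.56% ± 0.0796. These shares are descriptions and were not tested.

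**Figure D4:**
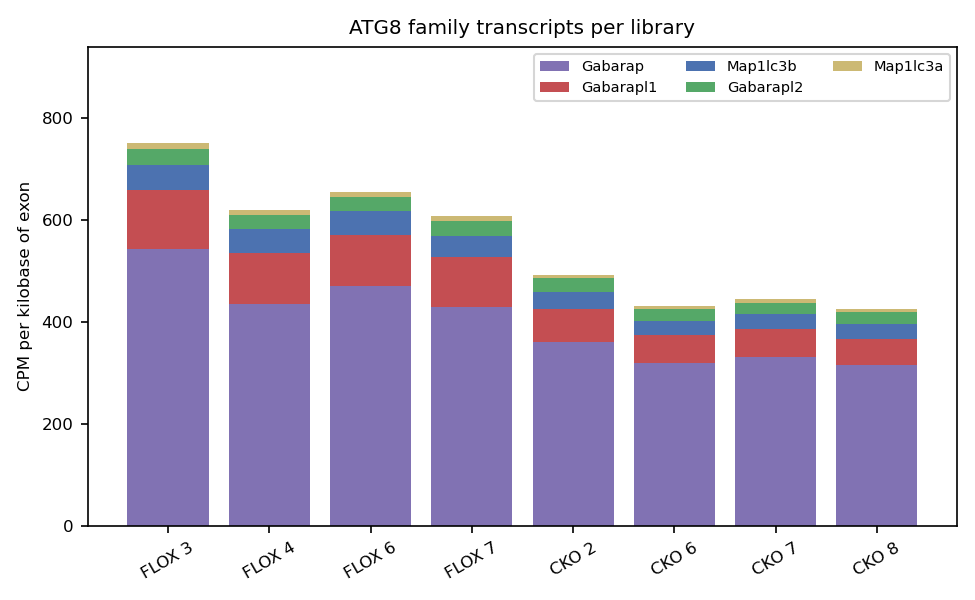
CPM per kilobase of exon (vertical axis, from 0) of the 5 ATG8 genes, stacked for each library. The stacks reach 607 to 751 in FLOX and 426 to 493 in CKO, and Gabarap is the largest part of every stack.

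The libraries within a group did not contribute equally. Among the 8 genes that fell, CKO replicate 2 was the highest CKO library, and thus nearest to FLOX, for 6, and CKO replicates 6 and 7 for 1 each. Over all genes called lower, CKO replicate 2 was the highest CKO library in 63.6%. CKO replicate 2 also had the highest Lyz2 level of its group (2385 CPM) and the smallest depth (11764855 read pairs), and the part of either in the results was not tested. In FLOX, replicate 3 was the highest library for 5 of the 8 and replicate 4 for 3, and replicates 6 and 7 were the lowest for 4 each. Over all genes called lower, replicate 6 was the lowest FLOX library in 35.2% and replicate 7 in 30.1%. The share of the highest FLOX library over all these genes was not computed. With CKO replicate 2 and FLOX replicate 6 left out together, a choice made after the data were seen, 7 of the 10 genes were called lower, Fundc1 being the one lost.

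Genes of the rest of the pathway were counted from lists written for this comparison, with earlier results of these data known. Each count is a description, to be read against 21.6% lower and 23.8% higher among all tested genes. Other mitophagy receptors and regulators, such as Fkbp8, Bcl2l13, Phb2 and Mfn2, were mostly not called: of 26 tested, 3 fell, 3 rose and 20 were not called, with a median log2 fold change of -0.02. Tbk1 (-0.27), the kinase that phosphorylates optineurin, Fundc2 (-0.30), a relative of Fundc1, and the ligase gene Mul1 (-0.27) fell. The phosphatase gene Pgam5 (0.39), the import receptor gene Tomm70a (0.30) and the ligase gene March5 (0.16) rose. Both counts depended on the fit: over the 20 alternatives 0 to 5 fell and 2 to 10 rose. With the replicate number as a block none fell and 2 rose, and Tbk1 and Fundc2 lost their calls (edgeR adjusted p = 0.162 for each). Only libraries of the shared numbers 6 and 7 inform the group difference in that fit. A call lost there, for these or other genes, need not mean a changed difference. Without scaling factors 10 rose, 5 fell without FLOX replicate 3, 6 rose without CKO replicate 2, and 5 rose without FLOX replicate 6.

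Receptors for other cargo were lower in part. Of 13 tested, 7 fell and none rose, with a median log2 fold change of -0.19. Nbr1, a relative of p62, fell (log2 fold change -0.57 with SE 0.06, edgeR adjusted p = 1.1e-05) and stood at 137 ± 6.31 CPM in CKO against 203 ± 10.9 in FLOX (SD over 4 libraries). Calcoco1 (-0.77) and Ccpg1 (-0.52), receptors for the endoplasmic reticulum, and Ncoa4 (-0.74), the receptor for ferritin, also fell.

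Genes that process ATG8 proteins and attach them to lipid were mixed. Of 11 tested, 4 fell and 1 rose, with a median of -0.17. Atg12 (-0.42) and Atg7 (-0.36), which act in the conjugation cascade, fell together with Gabarapl2 and Atg5 (-0.24). Atg16l1 (0.31), which places the conjugation complex at the membrane, rose. The replicate block ended this call at a similar fold change (0.31, edgeR adjusted p = 0.0577). Atg3 (-0.17, edgeR adjusted p = 0.0618) and the processing protease gene Atg4b (-0.07, edgeR adjusted p = 0.415) were not called.

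Initiation and fusion genes were mostly lower. Of 20 tested genes of autophagy initiation and membrane supply, 12 fell and none rose, with a median of -0.23. Ulk1 (-0.53), the kinase that starts autophagy, its partner Atg13 (-0.42), the lipid transfer protein gene Atg2a (-0.47) and Wdr45 (-0.65) were among them. Of 14 tested genes for the fusion of autophagosomes with lysosomes, 11 fell and none rose, with a median of -0.28. Tecpr1, a tethering factor, fell (log2 fold change -0.80 with SE 0.09, edgeR adjusted p = 1.35e-05) and stood at 177 ± 18.9 CPM in CKO against 308 ± 30.1 in FLOX (SD over 4 libraries). The SNARE gene Snap29 (-0.49) and the HOPS subunit genes Vps41 (-0.35) and Vps18 (-0.32) fell as well. With the replicate number as a block, 7 initiation genes and 7 fusion genes were called lower, and without scaling factors 6 initiation genes were.

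**Figure D5:**
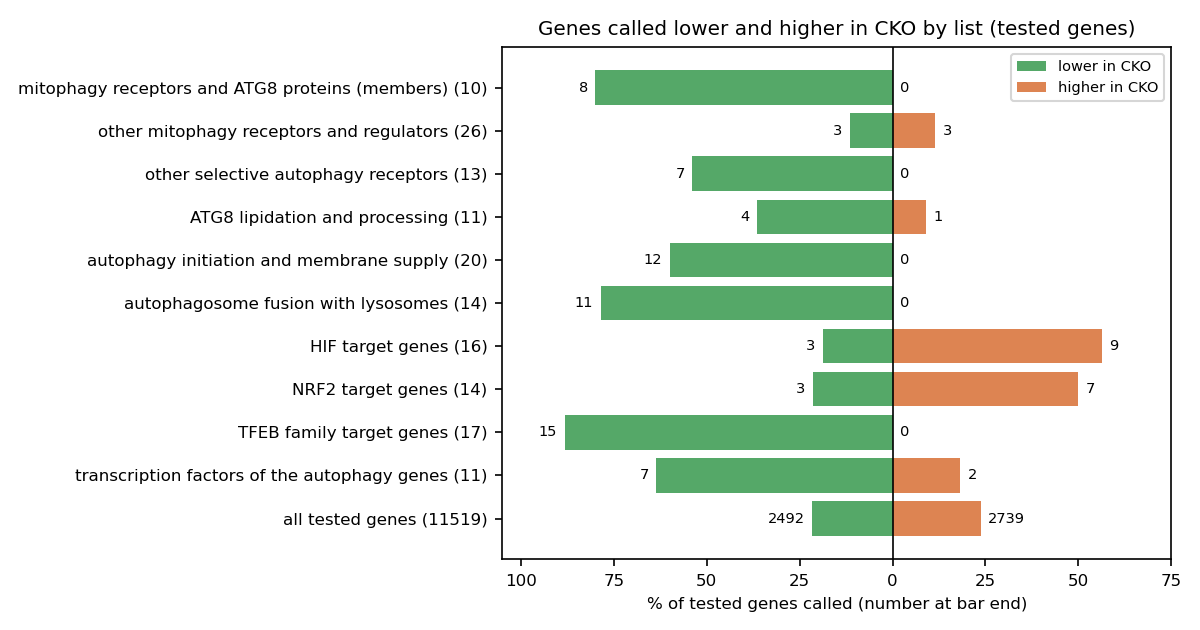
Share of tested genes called lower (left) and higher (right) in CKO for each list, with the number called at the end of each bar and the number tested in parentheses. The 8 of 10 genes described here stand beside 2492 lower and 2739 higher among all 11519 tested genes.

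Transcription factors that act on these genes, and their other targets, went different ways. Of 11 factors tested, 7 fell and 2 rose. Tfeb, which drives genes of lysosomes and autophagy, was at 52.5, 46.6, 46.8 and 45.8 CPM in CKO replicates 2, 6, 7 and 8 and at 94.0, 83.6, 84.4 and 78.9 CPM in FLOX replicates 3, 4, 6 and 7 (log2 fold change -0.83), and its relatives Mitf (-0.53) and Tfe3 (-0.32) fell as well. Of 17 other targets of the TFEB family 15 fell and none rose, with a median of -0.50, led by Rragd (-1.14), Psap (-0.81), Flcn (-0.71) and Gpnmb (-0.71). The oxidative stress factor gene Nfe2l2 (-0.46), which encodes NRF2, its antagonist Bach1 (-0.55), Epas1 (-0.45) and Zkscan3 (-0.31), a repressor of autophagy genes, fell, and Hif1a (0.29) and Atf4 (0.36) rose. Epas1 lost its call in 7 of 20 alternatives (-0.67 to -0.21, edgeR adjusted p up to 0.2), also when any one of CKO replicates 2 and 7 and FLOX replicates 4 and 7 was left out. Hif1a lost it under the replicate block (edgeR adjusted p = 0.0791), Bach1 without CKO replicate 6 (edgeR adjusted p = 0.0537) and Zkscan3 without scaling factors (edgeR adjusted p = 0.051). Foxo3 had a log2 fold change of -0.44 (edgeR adjusted p = 0.0669) with FLOX replicate 3 (25.2 CPM) below and the other FLOX libraries above the CKO range of 27.7 to 30.4 CPM, and Foxo1 one of -0.20 (edgeR adjusted p = 0.116). Foxo3 was called lower in 5 of 20 alternatives, one of them without FLOX replicate 3 (-0.60, edgeR adjusted p = 0.000609), and Foxo1 in 3, one of them without CKO replicate 2 (-0.26, edgeR adjusted p = 0.0365).

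The lists of HIF targets and of NRF2 targets rose in part. Of 16 tested HIF targets other than Bnip3, 9 rose and 3 fell, with a median log2 fold change of 0.30. P4ha2 (1.34), Slc2a1 (0.78), Pdk1 (0.68) and P4ha1 (0.55) rose, and Kdm3a (-0.43), Bhlhe40 (-0.93) and Mxi1 (-0.24) fell. Of 14 tested NRF2 targets other than Sqstm1, 7 rose and 3 fell, with a median of 0.14. Gclm (1.17) and Gclc (0.72), which encode the enzyme of glutathione synthesis, Me1 (1.03) and Txnrd1 (0.52) rose, and G6pdx (-0.30) and the ferritin genes Fth1 (-0.42) and Ftl1 (-0.27) fell. Bnip3 and Sqstm1 themselves were not called, as given above. The part of HIF, NRF2 or the TFEB family in the level of any member was not tested.

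The genes whose log2 CPM ran most closely with a member over the 8 libraries were picked by Pearson's r, a description only, since the 8 points fall into the same 4 CKO and 4 FLOX libraries for every gene. For Bnip3l they were Tifa (r = 0.998), Eepd1 (0.998) and Fcgr2b (0.997), for Pink1 Slc2a6 (0.997), Rnf166 (0.997) and Pon2 (0.996), and for Gabarapl1 Atp1b3, Rilpl2 and Arl6ip5 (each 0.998). Gabarap ran closest with S100a1 (0.998), Map1lc3b with Tmem86a (0.995), Map1lc3a with Adi1 (0.996), Optn with Snx7 (0.994) and Fundc1 with Pi4k2a (0.986). Bnip3 and Sqstm1, which did not pass the test, ran closest with Coq6 (0.968) and Napsa (0.982), which did not pass it either (edgeR adjusted p = 0.114 and 0.386). Klhdc1, the next nearest to Bnip3 (0.967), was called higher (log2 fold change 0.47, edgeR adjusted p = 0.0409).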

How the data were processed

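RNA of 8 BMDM cultures was sequenced as paired-end reads. Per the submitters' processing notes, HISAT2 2.0.5 and HTSeq were used with the mm10 build; annotation and strand setting: not given in the sources used here. The authors deposited raw counts, whole numbers of read pairs for each symbol. HTSeq's classes of unassigned pairs (28.3% to 33.7% of all pairs) were left out of library sizes and tests. The series table holds the same counts, with 27 names altered, and 0 of its columns had no sample.

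Counts were fitted in R 4.3.3 with edgeR 4.0.16: filterByExpr (minimum count 10, minimum total 15; 11519 genes), TMM factors, robust dispersions and the quasi-likelihood F test of CKO against FLOX, with Benjamini-Hochberg adjustment over all tested genes and a threshold of 0.05. Intervals use 6 degrees of freedom. On simulated counts of this comparison (11445 genes) the recovery was 8 of 50 at 1.2-fold, 43 of 50 at 1.5-fold, 48 of 50 at 2-fold and 50 of 50 at 4-fold, with 7 false calls among 11245 other genes. The share of genes changed there was far below the 45.4% called in the data. The adjustment depends on that share, so recovery and false calls in the data can differ from these counts. Pairs of libraries within a group all differed beyond counting noise (chi-square over its degrees of freedom, 2.45 to 27.9). In FLOX, replicates 3 and 6 (6.45) and replicates 4 and 7 (4.52) lay closest, against 15.6 to 27.9 for the other pairs. In CKO, pairs with replicate 2 stood at 7.43 to 9.64 and the other pairs at 2.45 to 3.05. The cause of this grouping was not tested.

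Gene positions, exon lengths and coding sequences were read from the GENCODE M21 annotation (GRCm38, which is mm10). The 10 genes and the lists were chosen with earlier results of these data known. Named genes are the 10, Opa1, Lyz2, the tested transcription factors, up to 4 genes of smallest p per other list and the nearest genes by correlation; named outside this rule after their values were seen are Park2, Fkbp8, Bcl2l13, Phb2, Mfn2, Mul1, March5, Atg3, Atg4b, Atg5, Kdm3a, Bhlhe40, Mxi1, G6pdx, Fth1 and Ftl1, and the marker genes. Of 205 list entries 3 had no row of that name. Alternatives were RLE, upper-quartile and no scaling factors, other filters, DESeq2 1.42.0, limma-voom (limma 3.58.1), libraries left out, the replicate number as a block, and removal of the 20 most abundant genes. Libraries were left out singly and, in choices made after the data were seen, together: CKO 2 with FLOX 6, FLOX 3 with FLOX 6, and FLOX 4 with FLOX 7. Counts over the 20 alternatives include these choices. Some marker results are not reported here.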

Additional observations from a re-analysis of the deposited data

Results flagged for a closer look

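Of 120 groups of 4 libraries checked, 12 held a library far from the others, and chance flags about 1 in 20. The check covered the 10 genes, the ratios, Opa1, Lyz2, Zcchc14, the tested transcription factors and the genes of smallest p per other list. The nearest genes by correlation and the other genes named here were not checked. Among the 10 genes, Fundc1 stood at 41.5 CPM in CKO replicate 6 against 42.9 CPM in each of the other CKO libraries, a gap that is wide only because those lie so close together. Map1lc3b stood at 178 CPM in CKO replicate 2 against 149.8 to 154 CPM in the others.

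CKO replicate 2 was also the highest of its group for Atg7 (81.3 CPM against 74.4 to 75.1), Atg2a (50.6 against 40.6 to 42.3), Tecpr1 (205 against 165 to 171), Gpnmb (5034 against 4121 to 4224), Psap (15199 against 11404 to 11673) and Tfeb (52.5 against 45.8 to 46.8), all genes that fell, and the lowest for Gclm (70.2 against 76.5 to 77.6), which rose. Slc2a1 stood at 55.7 CPM in CKO replicate 8 against 49.7 to 50.1 in the others. In FLOX, Vps18 stood at 150.3 CPM in replicate 4 against 136.6 to 138.5, and Gclc at 33.8 CPM in replicate 7 against 32.6 to 32.7.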

How the results depend on the processing

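Bnip3l, Pink1, Optn, Gabarap, Gabarapl1, Map1lc3a and Map1lc3b were called lower in all 20 alternatives. Of the other 3, Fundc1 kept its call in 5 (log2 fold change -0.18 to -0.05), Bnip3 was called higher in 3 (0.13 to 0.27), and Sqstm1 was called lower in 1 and reached 0.0017 with no scaling factors. That setting moved the median of all tested genes by 0.10, put Bnip3 at 0.27 (edgeR adjusted p = 0.0123) and gave 3611 higher and 1558 lower calls, against 2739 and 2492 with TMM. Without single libraries, 4273 to 5210 genes and 7 or 8 of the 10 were called. All 8 were lower only without FLOX replicate 6. Without CKO replicate 8 or FLOX replicate 3 they were 7 lower and Bnip3 higher, with Fundc1 lost. The log2 differences of the ratios were then -1.04 to -0.94 (Bnip3l to Bnip3), -0.40 to -0.34 (Gabarapl1 to Gabarap), -0.0464 to 0.0098 (Map1lc3a to Map1lc3b, positive without FLOX replicate 3) and 0.40 to 0.52 (Sqstm1 to Optn). These are values with no test, since 3 against 4 libraries cannot give a p below 0.0571. The replicate number as a block joins only the shared numbers 6 and 7, and the group difference then rests on libraries of these numbers alone. With this block 3499 genes and 7 of the 10 were called (Fundc1 lost, edgeR adjusted p = 0.476). Within these numbers the log2 ratios differed by -1.07, -0.37, 0.0017 and 0.41. The deviations of same-numbered libraries from their group means correlated at 0.14 (number 6) and -0.07 (number 7). These values cannot decide whether such libraries share an origin, which the labels do not state. Of 360 list counts under alternatives, 27 moved by more than 1.5 times or from 0, and the cause was not tested. Map1lc3a, with 101 to 204 read pairs per library, is the member that depth limits most.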
